A study of Rattus norvegicus with 8 samples.

Results

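The genes of glucose breakdown form a set of 44 named members: carriers of glucose and of monocarboxylates such as lactate, and enzymes of glycogen storage, glycolysis, pyruvate entry and the citrate cycle. A probe belonged to the set when its gene symbol in the deposited table, ignoring case, was that of a member. By this rule 38 of the 44 members were found, on 42 of the 22523 probes (21557 distinct symbols). No probe carried the symbol of Gys1, Hk1, Pgam1, Pdha1, Idh2 or Ogdh.

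Total RNA came from the enamel organ, the epithelial tissue that forms enamel, of mandibular incisors of 4-week-old male Wistar Hannover rats. The samples formed 2 groups: the secretory stage, when the enamel matrix is laid down, and the maturation stage, when the matrix is removed and the enamel hardens. Each of 4 rats gave both tissues, each hybridised to its own RatRef-12 bead array, so each group held 4 arrays. The labels name no genetic change or treatment. The title, description and tissue label of every array named the same stage, but the source label of maturation replicates 2, 3 and 4 named the secretory stage, and the title was followed. The dissected tissue holds ameloblasts together with other cells, and in such bulk samples fewer cells of a type and less RNA per cell cannot be told apart.

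Glycolysis splits glucose into pyruvate in the cytosol and yields ATP without oxygen. Pyruvate is then either reduced to lactate, which leaves the cell with a proton through monocarboxylate transporters, or enters the mitochondrion, where the pyruvate dehydrogenase complex feeds it into the citrate cycle. Glycogen is the stored form of glucose. Maturation-stage ameloblasts are known for moving ions and acid equivalents, and secretory-stage ameloblasts for making and exporting matrix protein.

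The labels fitted the stages. Klk4, the protease of the maturation stage, was higher by 7.57 on the log2 scale on its first probe; its second was detected on no secretory array and was at least 118-fold higher, with an undetected stage set to a floor described with the bounds of Hk3 and Gapdhs. Enam, an enamel matrix protein, read 11.94 to 12.03 in secretory tissue and 9.08, 5.17, 5.53 and 8.22 in the maturation tissue of rats 1 to 4. Maturation replicates 1 and 4 thus stood apart from 2 and 3, and all 4 lay below the secretory arrays. The difference of -4.98 was -5.68 without maturation replicate 1 and -4.38 without replicate 2. Without those replicates the number of member probes called higher was 12 each, and 13 without replicate 4. Of 5 probes for maturation-stage ameloblast genes 5 were called higher, and of 4 for secretory-stage genes 2 were called lower (Enam and Mmp20), with Amelx at -0.53 (limma adjusted p = 0.0555). Between 11164 and 11450 probes were detected on the maturation arrays and between 10667 and 10941 on the secretory arrays, where detected means a detection p-value below 0.05. The summed raw signal was also larger on the maturation arrays (13355073 to 16122665) than on the secretory arrays (11881691 to 12046793). Values below are log2 signals after background correction and quantile normalization, which gives all arrays the same distribution. A fold change (FC) is the maturation mean over the secretory mean. A probe was called when its Benjamini-Hochberg adjusted p in limma was below 0.05 and its FC at least 1.8.

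The short DNA stretches shown here lie upstream of the start of 4 of the called members, and are given because they hold the letters ACGTG, the core that hypoxia-inducible factors are known to bind. They were read from RefSeq promoters on the GRCr8 build, 5′ to 3′ on the strand of the gene, with ACGTG, or its reverse complement CACGT, in capitals.
Ldha, chr1:106507987-106508027, plus strand, 105 to 65 bases before the start: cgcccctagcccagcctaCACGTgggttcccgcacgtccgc
Aldoa, chr1:190836947-190836987, minus strand, 210 to 170 bases before the start: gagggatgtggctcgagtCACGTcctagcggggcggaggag
Aldoc, chr10:63715495-63715535, plus strand, 49 to 9 bases before the start: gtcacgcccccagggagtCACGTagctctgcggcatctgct
Gbe1, chr11:22181232-22181272, plus strand, 44 to 4 bases before the start: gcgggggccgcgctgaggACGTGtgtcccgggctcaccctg
The match in Ldha is part of the palindrome CACGTG, and the same stretch holds a further CACGT in lower case. Both strands of the 250 bases before each start were searched, and a gene counted if any of its listed starts had the letters. Counted by gene in the same way, ACGTG occurred in 18.1% of all 27457 genes with a window, in 14 of the 33 members with a window (42.4%) and in 4 of the 9 called members with one (44.4%). The share in called members was near that in all members. All genes here include genes without a detected probe. The letters GCGTG, the other form of that core, occurred in 28.4% of all genes, in 16 members (48.5%) and in 4 of the called ones, Aldoc, Eno1, Ldha and Pfkp. CACGTG, which contains ACGTG, occurred in 6.18% of all genes and in 4 members, Ldha, Pdhb, Pdk2 and Slc16a1. A match is a run of letters and not a measured site, and whether the letters bear on the calls was not tested. Idh3a, Pc, Pgk1, Slc16a6 and Slc2a3 had no window.

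The members were mostly higher at the maturation stage. Of the 42 probes 13 were called higher, where 4.60% of all probes were, and none was called lower, where 3.15% of all probes were. By gene, 12 of 38 members were called: the glycogen branching enzyme Gbe1, the glycolytic enzymes Pfkp, Aldoa, Aldoc, Tpi1, Pgk1 and Eno1, lactate dehydrogenase A (Ldha), the transporters Slc16a3 and Slc16a6, citrate synthase (Cs) and, at the edge of the threshold, Idh3a. A further 15 genes were higher with an adjusted p below 0.05 but less than 1.8-fold, Idh1 was lower by that measure, and 10 did not pass the test. Each gene is counted by the probe detected on most arrays.

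Set against the threshold on p alone, 30 of 42 member probes were higher and 1 was lower, where 12.8% and 14.0% of all probes were. The 4 maturation values lay wholly above the 4 secretory values for 29 member probes, compared with 13.1% of all probes, and wholly below them for 1, compared with 14.6%. Of the 42 member probes 40 were detected on at least 4 arrays. Those 40 held all 13 calls and all 30 probes higher by p alone. Of the 11233 probes on the array detected that often, 9.19% were called higher and 24.0% were higher by p alone. The median difference was 0.59 for the 42 member probes, -0.01 for all probes and -0.05 for all probes detected that often. At an unadjusted p below 0.05, 1 member probe was lower by limma, 2 with rat as a block and 2 by the Student test, where 18.3%, 19.0% and 17.1% of all probes were.

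**Figure D1:**
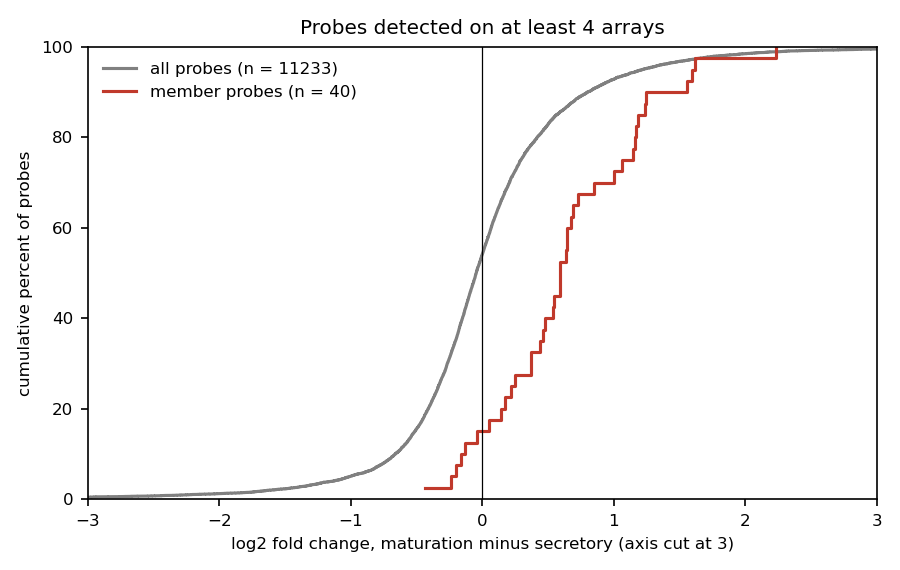
Cumulative percent of probes (y axis) against log2 fold change, maturation minus secretory (x axis, cut at 3), for 11233 probes detected on at least 4 arrays (grey) and the 40 member probes among them (red). The member curve lies to the right of the grey curve over most of its length.

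The shift of the members relative to other detected probes was similar under each scaling of the arrays, and the number of calls was not. The member median minus the median of detected probes was 0.63 in the main setting, 0.63 after cyclic loess, 0.62 after median scaling and 0.62 with no normalization. It was smaller under other background settings: 0.59 with normexp without negative controls, 0.51 with an offset of 50 and 0.47 without background correction. With no normalization the median of all probes moved up by 0.14 and 87.2% of all calls were higher, compared with 59.3% in the main setting and 77.6% after median scaling. The number of member probes called higher was then 28 with no normalization, where 10.1% of all probes were, and 20 after median scaling, where 7.15% were.

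**Figure D2:**
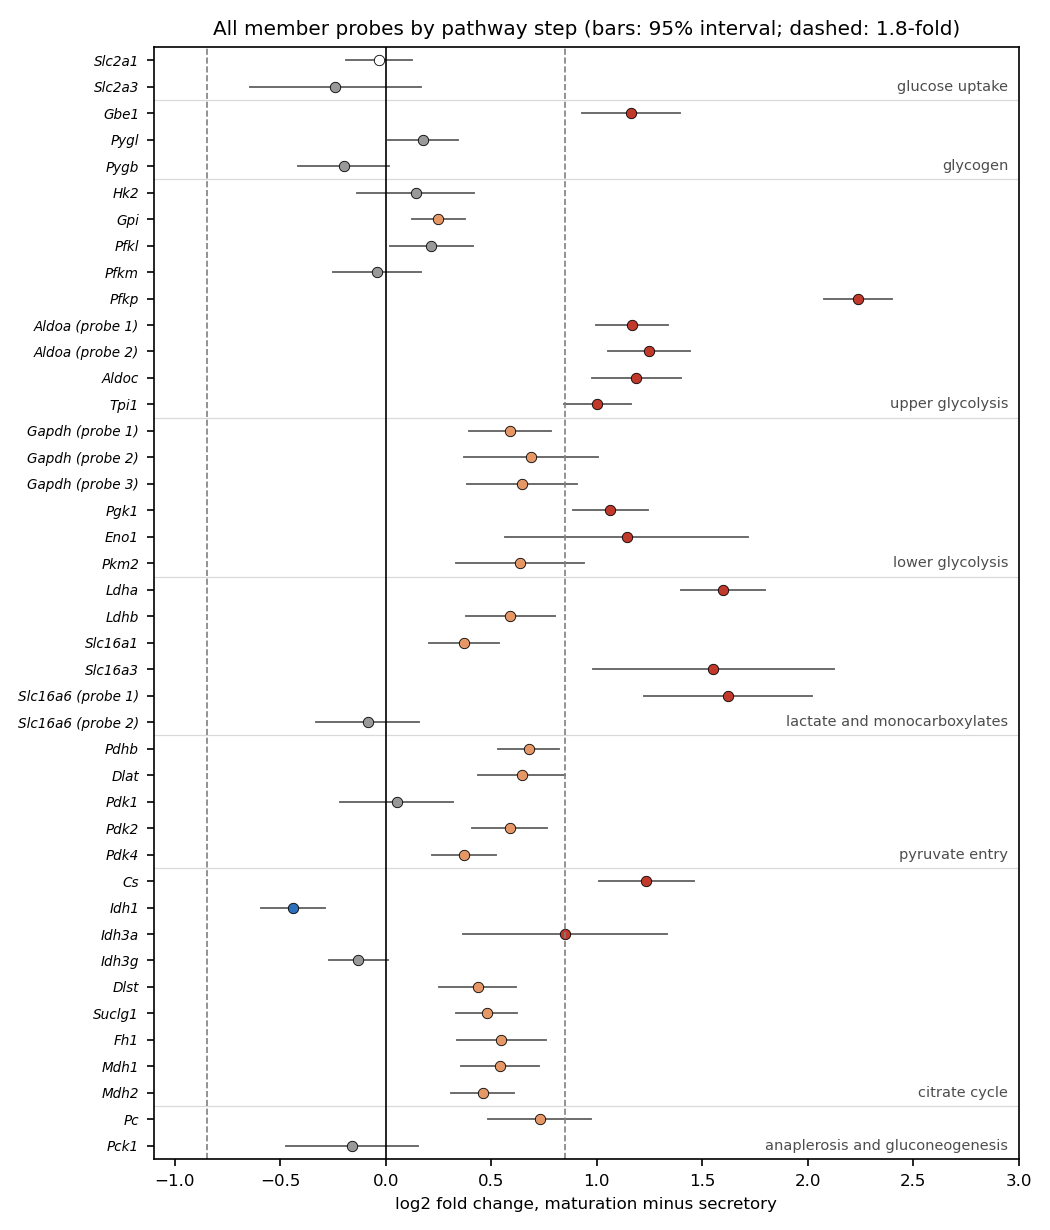
Log2 fold change, maturation minus secretory (x axis), of all 42 member probes ordered by pathway step (y axis), with 95% intervals from limma and dashed lines at 1.8-fold. Red points were called higher, orange points were higher by adjusted p alone, the blue point (Idh1) was lower by adjusted p alone, grey points did not pass and the open point (Slc2a1) was detected on no array.

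Neither glucose carrier of the set passed the test. Slc2a1, which encodes the widespread carrier GLUT1, was not detected on any of the 8 arrays, so it has no measured level. Slc2a3, which encodes the high-affinity carrier GLUT3, was detected on 3 arrays of each stage at 4.96 to 5.27 in maturation and 4.73 to 5.69 in secretory tissue. Its difference of -0.24 had a 95% interval from -0.64 to 0.17 and an adjusted p of 0.428 by limma, and the stages overlapped.

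Of the 3 measured glycogen members, the branching enzyme rose and the phosphorylases did not pass the test. Gbe1, which adds the branch points of glycogen, read 7.66, 7.79, 7.90 and 7.85 in the secretory tissue of rats 1 to 4 and 8.83, 9.26, 8.84 and 8.92 in their maturation tissue. Every maturation value lay above every secretory value. The FC was 2.24 (log2 1.16, SE 0.10, limma adjusted p = 2.45e-05). The phosphorylases release glucose from glycogen. The liver form Pygl differed by 0.18 (95% interval 0.01 to 0.34, adjusted p = 0.125) and the brain form Pygb by -0.20 (-0.41 to 0.01, adjusted p = 0.175), and both overlapped between stages.

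In upper glycolysis, which consumes ATP to make triose phosphates, Pfkp rose most. Pfkp encodes the platelet form of phosphofructokinase, the enzyme of the committed step. It read 8.97, 8.97, 9.07 and 9.11 in secretory tissue and 11.13, 11.28, 11.40 and 11.26 in maturation tissue of rats 1 to 4. The stages were far apart and the spread within each was small (SD 0.07 secretory, 0.11 maturation). The FC was 4.72 (log2 2.24, SE 0.07, limma adjusted p = 5.21e-08). The other phosphofructokinases did not pass: the liver form Pfkl differed by 0.22 (0.02 to 0.41, adjusted p = 0.109) and the muscle form Pfkm by -0.04 (-0.25 to 0.17, adjusted p = 0.833). The sign of Pfkm turned after cyclic loess (0.04), after median scaling (0.31) and with no normalization (0.51).

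Both aldolases, which split fructose 1,6-bisphosphate, rose by similar amounts. Aldoa on its first probe read 11.52, 11.24, 11.37 and 11.45 in secretory tissue and 12.49, 12.65, 12.62 and 12.48 in maturation tissue. Its second probe read 10.72 to 10.90 and 11.84 to 12.20, and neither probe overlapped between stages. The FC was 2.24 on the first probe (limma adjusted p = 3.45e-06) and 2.37 on the second (adjusted p = 4.94e-06). Aldoc, the brain form, read 9.66, 9.42, 9.25 and 9.65 in secretory tissue and 10.68, 10.72, 10.62 and 10.71 in maturation tissue. All maturation values were higher, and they were closer together (SD 0.05) than the secretory values (SD 0.20). The FC of Aldoc was 2.28 (log2 1.19, SE 0.09, limma adjusted p = 1.19e-05).

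Triose phosphate isomerase Tpi1, which interconverts the products of aldolase, also rose. It read 12.85, 12.64, 12.71 and 12.72 in secretory tissue and 13.61, 13.85, 13.72 and 13.75 in maturation tissue, with no overlap. The FC was 2.004 (log2 1.003, SE 0.07, limma adjusted p = 5.2e-06). Gpi, the isomerase between glucose 6-phosphate and fructose 6-phosphate, was higher by only 0.25 (0.12 to 0.37, adjusted p = 0.00802). Hexokinase 2 (Hk2), which traps glucose in the cell, differed by 0.14 (-0.14 to 0.42, adjusted p = 0.514), with 1 secretory array low at 6.52 against 6.94 to 7.003 on the others.

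In lower glycolysis, which yields ATP and pyruvate, all 6 probes of 4 genes were higher with an adjusted p below 0.05, against 12.8% of all probes, and Pgk1 and Eno1 were called. Phosphoglycerate kinase Pgk1, which makes the first ATP of the payoff phase, read 11.67, 11.39, 11.61 and 11.56 in secretory tissue and 12.49, 12.71, 12.67 and 12.63 in maturation tissue. No values overlapped. The FC was 2.09 (log2 1.07, SE 0.08, limma adjusted p = 7.35e-06).

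The enolase Eno1 was the most variable of the called glycolytic members. It read 6.87, 5.94, 6.51 and 6.30 in secretory tissue and 8.21, 7.61, 7.12 and 7.26 in maturation tissue. The lowest maturation value (7.12) lay above the highest secretory value (6.87), and the rise within a rat ran from 0.60 to 1.67. The FC was 2.21 (log2 1.14, SE 0.26, limma adjusted p = 0.00775). Without background correction its difference was 0.67, which is under 1.8-fold.

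Gapdh, often used as a reference transcript, was not level between the stages. Its probe annotated to chromosome 4 read 11.89 to 12.24 in secretory and 12.57 to 12.78 in maturation tissue, an FC of 1.503 (limma adjusted p = 0.00061). A pair of probes with the same symbol, annotated in the table to chromosome 3, had FC of 1.61 and 1.57. Their gene ID had no entry in the RefSeq table. These 2 probes read low, at 5.61 to 6.77, and without background correction their log2 differences were 0.31 and 0.28. The pyruvate kinase gene, listed as Pkm2 (current symbol Pkm), was near background, detected on 4 maturation arrays and 1 secretory array. Its FC was 1.55 (log2 0.64, SE 0.13, limma adjusted p = 0.00581), and without background correction its log2 difference was 0.22.

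**Figure D3:**
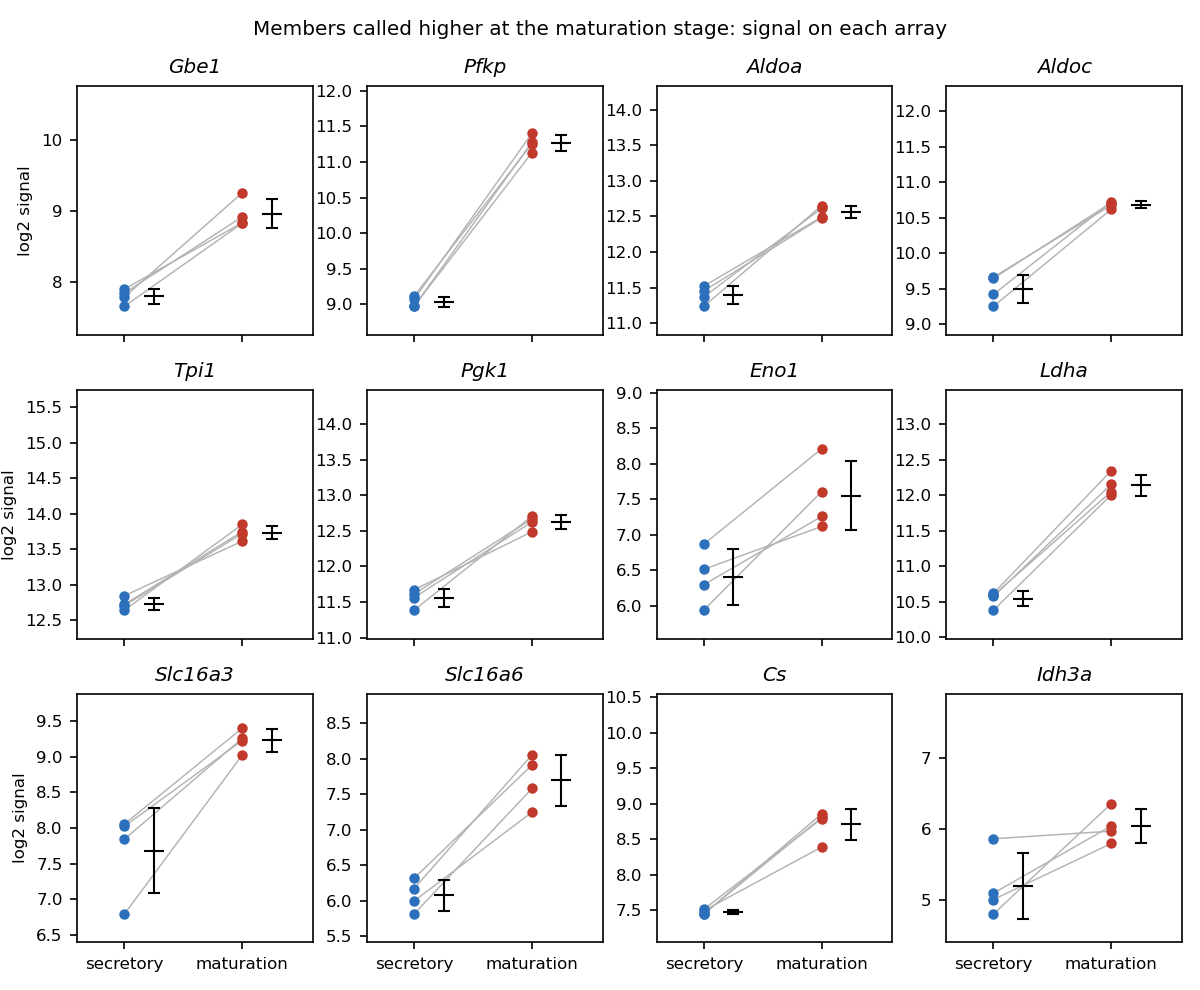
Log2 signal (y axis) of the 12 called members in secretory (blue) and maturation (red) tissue (x axis); each point is an array, grey lines join the tissues of a rat, and black marks give the mean and SD of 4 arrays. All panels span the same number of log2 units; the stages overlap only for Idh3a, and secretory replicate 2 stands apart for Slc16a3.

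All 5 genes of lactate and monocarboxylate handling were higher by adjusted p, against 12.8% of all probes, and 3 of them were called, against 4.60%. Ldha, the subunit of lactate dehydrogenase that prevails in lactate-producing tissue, read 10.38, 10.62, 10.58 and 10.59 in secretory tissue and 12.004, 12.34, 12.15 and 12.05 in maturation tissue. The stages were separate in all rats. The FC was 3.02 (log2 1.596, SE 0.09, limma adjusted p = 1.16e-06). Ldhb, the subunit that prevails in lactate-using tissue such as heart, was higher by 0.59 (0.38 to 0.80, adjusted p = 0.00102), from 10.70 to 10.98 in secretory to 11.21 to 11.57 in maturation tissue.

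Slc16a3 encodes MCT4, known as a lactate exporter of glycolytic cells. It read 8.06, 6.79, 7.84 and 8.02 in secretory tissue and 9.41, 9.03, 9.26 and 9.23 in maturation tissue. Secretory replicate 2 was far below the other secretory arrays, and even the highest secretory value was below all maturation values. The FC was 2.94 (log2 1.55, SE 0.25, limma adjusted p = 0.00123). Leaving out arrays singly gave differences of 1.26 to 1.68, the lowest being without secretory replicate 2, and the call held each time.

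Slc16a6, which encodes the transporter MCT7, read 5.999, 6.32, 6.17 and 5.82 in secretory tissue and 7.25, 7.91, 8.06 and 7.58 in maturation tissue on its first probe. The FC was 3.08 (log2 1.62, SE 0.18, limma adjusted p = 9.17e-05), with no overlap. Without background correction its log2 difference was 0.92, and the call held. Its second probe was detected on 1 of 8 arrays and differed by -0.09, so the gene rests on the first probe. Slc16a1 encodes MCT1, which carries lactate in either direction. It was higher by 0.37 (0.21 to 0.54, adjusted p = 0.00372), from 8.41 to 8.57 in secretory to 8.73 to 9.00 in maturation tissue.

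At the entry of pyruvate into the mitochondrion no member was called, but 4 of 5 were higher with an adjusted p below 0.05, against 12.8% of all probes. Pdhb and Dlat, subunits of the pyruvate dehydrogenase complex, had FC of 1.598 (limma adjusted p = 3.62e-05) and 1.56 (adjusted p = 5e-04). The kinases that switch the complex off are Pdk1, Pdk2 and Pdk4 in this set. Pdk2 had an FC of 1.502 (adjusted p = 0.000343) and Pdk4 of 1.29 (adjusted p = 0.00228). Pdk1 differed by 0.05 (-0.22 to 0.32, adjusted p = 0.839), and its sign turned without maturation replicate 1 and without secretory replicate 2.

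In the citrate cycle 7 of 9 members were higher and Idh1 was lower by adjusted p, against 12.8% and 14.0% of all probes. Cs, which joins acetyl-CoA to oxaloacetate, was called. It read 7.50, 7.45, 7.51 and 7.45 in secretory tissue and 8.39, 8.81, 8.79 and 8.86 in maturation tissue. Maturation replicate 1 was the lowest of its stage but lay well above all secretory arrays. The FC was 2.35 (log2 1.23, SE 0.10, limma adjusted p = 1.37e-05).

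Idh3a, the catalytic subunit of the NAD-dependent isocitrate dehydrogenase, was called but passed the fold threshold only narrowly. It read 4.81, 5.10, 5.01 and 5.86 in secretory tissue, where 2 arrays detected it, and 6.36, 6.04, 5.80 and 5.97 in maturation tissue. Secretory replicate 4 lay within the maturation range. The FC was 1.801 (log2 0.85, SE 0.21, limma adjusted p = 0.0147). The call was lost without maturation replicate 1 or 2 and without secretory replicate 1, 2 or 3 (differences across all arrays left out 0.72 to 1.09, adjusted p at most 0.0437), and by the Student test (adjusted p = 0.0673). It was also lost with normexp without negative controls (0.66), without background correction (0.30), with an offset of 50 (0.49) and after cyclic loess (0.84). The regulatory subunit Idh3g differed by -0.13 (-0.27 to 0.01, adjusted p = 0.175), and its sign turned after median scaling (0.15) and with no normalization (0.35).

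Dlst, Suclg1, Fh1 (current symbol Fh) and Mdh2, which act between 2-oxoglutarate and oxaloacetate in the cycle, had FC of 1.35, 1.39, 1.46 and 1.37. Mdh1, the cytosolic malate dehydrogenase, had an FC of 1.45. The limma adjusted p of these 5 ran from 0.000339 for Suclg1 to 0.00258 for Dlst, and no stage overlapped for any of them. Idh1, the cytosolic NADP-dependent enzyme, was the only member lower by adjusted p. It read 10.92 to 11.15 in secretory and 10.52 to 10.64 in maturation tissue, a difference of -0.44 (SE 0.07, limma adjusted p = 0.000852) seen in all 4 rats. This direction depended on the scaling, since the difference was -0.17 after median scaling and 0.03 with no normalization.

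Ogdh and Idh2 had no probe under their own symbols, and probes with their gene IDs were looked up after the table had been seen. Ogdh, a subunit of 2-oxoglutarate dehydrogenase, had an FC of 1.71 (log2 0.77, limma adjusted p = 2.04e-05). Idh2, the mitochondrial NADP-dependent enzyme, differed by 0.09 (adjusted p = 0.46) on its detected probe. Pyruvate carboxylase Pc, which refills the cycle with oxaloacetate, read 9.31 to 9.86 in secretory and 10.21 to 10.40 in maturation tissue (FC 1.66, limma adjusted p = 0.000656). Pck1, which takes oxaloacetate towards glucose, was near background on all arrays (4.86 to 5.52) and differed by -0.16 (-0.47 to 0.15, adjusted p = 0.511).

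The measured change differed between isoforms of several steps, but in the main setting no pair passed after adjustment over the pairs. For each pair the difference of log2 signal within an array was compared between stages by a two-sided exact permutation test, for which 0.0286 is the smallest p that 4 against 4 arrays allow. Of 12 pairs, 6 reached that p, and after adjustment over the 12 each of them stood at 0.0571, which misses 0.05. Since no p can be smaller, the adjusted value was set only by how many of the 12 pairs reached it. No pair could pass through its own separation, however wide, so the miss does not tell whether a given pair changed unequally. The sign-flip test within the 4 rats cannot go below 0.125, so it could not pass for any pair.

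The change of Pfkp exceeded that of Pfkl by 2.02 (95% interval 1.66 to 2.38) and that of Pfkm by 2.28 (1.97 to 2.59). Intervals of the pairs are unpaired Student intervals of the within-array difference and do not come from the permutation test. The change of Ldha exceeded that of Ldhb by 1.01 (0.64 to 1.37), with 0.76, 1.20, 1.13 and 0.93 in rats 1 to 4. The change of Slc16a3 exceeded that of Slc16a1 by 1.18 (0.41 to 1.96), ranging from 0.82 to 1.93 among rats. All 4 rats gave the same sign in each of these pairs. The remaining pairs at the smallest p were Pdk2 over Pdk1, by 0.54 (0.07 to 1.005), and Pfkl over Pfkm, by 0.26 (0.0038 to 0.51).

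By contrast Aldoa and Aldoc differed in their change by -0.02 (-0.24 to 0.20, exact p = 0.857) and Mdh1 and Mdh2 by 0.08 (-0.08 to 0.25, exact p = 0.314). Both intervals included 0 and stayed within 0.25 of it. Pygl against Pygb (0.38, exact p = 0.114), Pdk2 against Pdk4 (0.22, exact p = 0.0857) and Pdk1 against Pdk4 (-0.32, exact p = 0.143) did not pass. Both pairs with Pdk4 had the same sign in all 4 rats, where the sign-flip test gives its smallest p. Slc2a1 against Slc2a3 had no meaning because Slc2a1 was undetected.

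**Figure D4:**
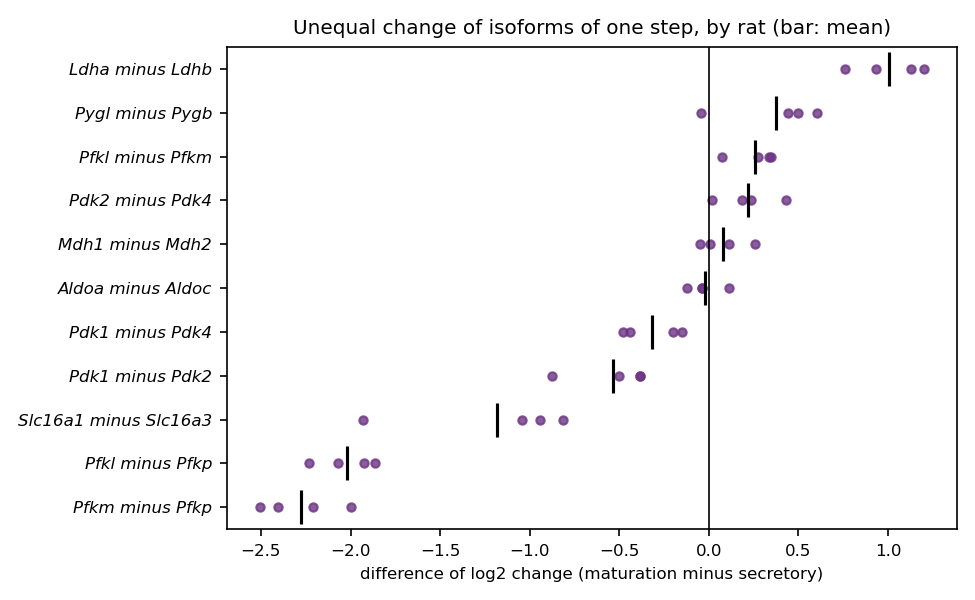
Difference in log2 change (maturation minus secretory) between isoforms of a step (x axis) for 11 pairs (y axis); each point is a rat and the bar is the mean. The pairs with Pfkp, the pair Ldha and Ldhb and the pair Slc16a1 and Slc16a3 lie away from 0 in all 4 rats, and Aldoa against Aldoc lies around 0.

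A further 136 genes were listed, namely other genes of the same steps, the pentose phosphate pathway, and hypoxia factors and their targets, and 104 of them had a probe. Of their 107 probes 15 were called higher and 3 lower (against 4.60% and 3.15% of all probes), and their median difference was 0.11. By adjusted p alone 41 were higher and 12 lower, against 12.8% and 14.0% of all probes.

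The differences of greatest size lay in transport. Slc2a8, which encodes the mainly intracellular hexose carrier GLUT8, rose from a mean of 6.44 to 9.94 (FC 11.3, limma adjusted p = 9.81e-08), and the fructose carrier Slc2a5 from 5.96 to 6.95 (FC 1.98, adjusted p = 5.11e-06). Embigin (Emb), a partner protein that monocarboxylate transporters need at the membrane, rose from 6.21 to 9.34 (FC 8.75, adjusted p = 7.41e-06). Basigin (Bsg), the partner of MCT1 and MCT4, did not pass (difference 0.03, adjusted p = 0.87). The transporter Slc16a11 was higher by 1.40 (adjusted p = 3.53e-05). Of the other glucose carriers 2 of 10 probes (20%) were called higher, and of the other monocarboxylate genes 2 of 11 (18.2%), where 4.60% of all probes were.

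Of 19 other glycolysis probes 3 were called higher and 1 lower, against 4.60% and 3.15% of all probes. The enolase Eno2, the form of neurons, had an FC of 2.60 (limma adjusted p = 1.78e-05) and Galm, which acts on galactose, of 2.38 (adjusted p = 3.49e-06). Hk3, a hexokinase of leukocytes among other cells, was not detected on any secretory array and was at least 1.801-fold higher (adjusted p = 0.00386). Gapdhs, the sperm form of the enzyme, was not detected on any maturation array and was at least 2.19-fold lower (adjusted p = 0.00102). In such bounds the undetected side is set at the lowest signal of a detected probe on each array, or at the probe's own signal where that was higher.

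Of 17 other glycogen probes 3 were higher and 4 lower by adjusted p, shares not far from those of all probes (12.8% and 14.0%). Ppp1r3c, which brings a phosphatase to glycogen, fell from 9.41 to 8.28 (FC 2.19 lower, limma adjusted p = 0.000121) on its detected probe. Pgm1, which joins glycogen to glycolysis through glucose 1-phosphate, was higher by 0.83 (adjusted p = 9.58e-05), under 1.8-fold. A further probe listed as a predicted Pgm1 has the gene ID of Pgm2 and differed by -0.53 (adjusted p = 0.000332).

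Of the 17 other citrate cycle probes 14 were higher and 1 lower by adjusted p, against 12.8% and 14.0% of all probes, and 3 were called higher, against 4.60%. Slc25a1, the carrier that exports citrate from mitochondria, had an FC of 2.97 (limma adjusted p = 7.91e-07). The aspartate aminotransferase Got1 had an FC of 1.99. Sdha, Sdhb, Sdhc and Sdhd, the 4 subunits of succinate dehydrogenase, were higher by 0.48, 0.67, 0.33 and 0.44, all with an adjusted p below 0.05. In the gluconeogenesis list G6pc3, a glucose 6-phosphatase found in many tissues, was higher by 1.30 (adjusted p = 8.76e-05), and the mitochondrial Pck2 was lower by 1.01 on the log2 scale (-1.01, adjusted p = 6.29e-06).

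Markers of other cell types also moved with the stage. Of 15 probes for macrophage and leukocyte genes 11 were called higher and none lower, against 4.60% and 3.15% of all probes (the shares to set beside every count of calls in the marker lists), and their summed linear signal was 13360 to 16943 on maturation and 5312 to 6529 on secretory arrays. Cd68 was higher by 2.19 and Cd74 by 1.999. Of 5 osteoclast probes 3 were called higher (Ctsk, Atp6v0d2 and Mmp9), with sums of 15005 to 19281 and 6003 to 8544, and Calcr was undetected. A probe counted there as Tnfrsf11a has the gene ID of Zcchc2, which is no osteoclast marker. The part of these cells in the rise of the members was not tested.

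Skeletal muscle, a tissue rich in glycolytic enzymes, gave sums of 361 to 1356 on maturation and 440 to 859 on secretory arrays. Myh4 was undetected and 1 of 10 probes was called, Actn3, which was lower. Maturation replicate 4 stood apart, with Acta1 at 8.35, Ckm at 7.68 and Tnnc2 at 7.80. The other maturation arrays read 5.15 to 6.36, 4.93 to 5.51 and 4.97 to 5.77 for these genes. Pvalb was not raised on that replicate. Of 5 erythroid probes none was called. Their sums overlapped between stages. Of 8 adipocyte probes 1 was called higher (Cfd) and 1 lower (Adipoq, detected on no maturation array), with sums of 3048 to 3910 on maturation and 1711 to 1884 on secretory arrays. Of 8 endothelial probes 2 were called higher, with sums of 6947 to 8808 and 5162 to 6396. Of 9 fibroblast probes 1 was called, Thy1, which was higher, with sums of 89243 to 94895 and 73588 to 84806. Of 7 odontoblast and osteoblast probes Ibsp was called higher and Dspp, the odontoblast protein, lower. Their sums were 16596 to 18737 on maturation arrays and 10577 to 25274 on secretory arrays, which differed widely among themselves. In secretory replicates 1 to 4 Bglap2 read 11.11, 13.03, 13.73 and 13.98, and Dmp1 read 9.33, 9.37, 11.30 and 11.16. Dspp was detected on no maturation array and was at least 34.0-fold lower. Of 9 cell cycle probes none was called, with 6 lower and 1 higher (Pcna) by adjusted p alone, against 14.0% and 12.8% of all probes. The part of these lists in the results was not tested.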

How the data were processed

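The authors hybridised biotin-labelled cRNA from 8 samples to Illumina RatRef-12 arrays and deposited a table of mean bead intensity, not normalized, with a detection p-value, bead standard error and bead count (22 to 73 beads for member probes) for each probe; the scanner software settings and genome build are not given in the sources used here. Stages and replicates were taken from the titles. Signals were corrected with neqc (limma 3.58.1, R 4.3.3; offset 16, background from detection p-values), quantile normalized and fitted over all 22523 probes with an unpaired linear model and moderated statistics, checked on simulated data. The bead error of member probes had a median of 3.29% of the signal. Since arrays give no read depth, precision is limited by the 4 arrays per stage. Same-numbered arrays share a rat; their deviations from the stage means correlated at 0.129 to 0.234, so a fit with rat as a block was run as an alternative. Members with several probes are given by every probe; the one detected on most arrays stands for the gene. All called members and up to 25 called genes of other lists were named by rule. Some called genes of other lists are counted but not reported here by name. Alternatives were the background correction, offset, normalization, a detection filter, thresholds, Student's test of the methods and leaving out each array. The members, lists and tests were chosen with earlier results of these data known.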

Additional observations from a re-analysis of the deposited data

Results flagged for a closer look

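In 81 sets of 4 arrays (a member probe in a stage where it was detected), 5 had a value whose gap to its nearest neighbour exceeded Dixon's critical share of the range, where chance alone flags about 1 set in 20, or about 4.05 of 81. Slc16a3 in secretory replicate 2 was 6.79, with the other secretory arrays at 7.84 to 8.06. Cs in maturation replicate 1 was 8.39, with the others at 8.79 to 8.86. Hk2 in secretory replicate 4 was 6.52, with the others at 6.94 to 7.003. A Gapdh probe annotated to chromosome 3 in secretory replicate 2 was 6.10, with the others at 5.69 to 5.73. Slc2a3 in maturation replicate 3 was 5.27, with the others at 4.96 to 5.001.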

How the results depend on the processing

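The 13 member probes called higher became 20 after median scaling, 28 with no normalization (an alternative added after the data were seen) and 30 with no fold threshold, and 11 to 13 under every other alternative, leave-one-out included (12 to 13). The 0 called lower became 1 with no fold threshold. Of other pathway probes, the 15 called higher became 9 without background correction, 24 after median scaling, 33 with no normalization and 41 with no fold threshold (14 to 17 leaving out arrays), and the 3 called lower became 1, 1, 1 and 12. Gbe1, Pfkp, Aldoa, Aldoc, Tpi1, Pgk1, Ldha, Slc16a3, Slc16a6 and Cs kept their calls under each background, offset and normalization setting and each array left out; Eno1 lost its call without background correction (0.67), and Idh3a lost its call under the other background settings, the offset of 50, cyclic loess, the stricter p, the Student test and 5 of 8 arrays left out. The fit with rat as a replicate block called 13 member probes higher and 0 lower and 15 and 3 of the other pathway probes; the within-rat sign-flip test, as a block, passed 0 of the 6 isoform pairs, since its smallest p is 0.125. The 6 pairs at the smallest permutation p were 6 or 7 under other settings and 4 to 7 leaving out arrays. With 7 of the 12 pairs at that p, their adjusted p falls below 0.05. The result that no pair passed therefore depended on the setting. Signs turned after median scaling for Pygb (0.08), Pfkm (0.31) and Idh3g (0.15); with no normalization for Slc2a3 (0.0235), Pygb (0.28), Pfkm (0.51), the second Slc16a6 probe (0.0285), Idh1 (0.0288), Idh3g (0.35) and Pck1 (0.10); and after cyclic loess for Pfkm (0.0448). Leaving out arrays gave -0.13 to 0.0113 for Pfkm, -0.15 to 0.0075 for the second Slc16a6 probe and -0.0339 to 0.15 for Pdk1. Aldoa minus Aldoc was 0.0475 without background correction and 0.0067 with an offset of 50. The cause was not tested. Near background, as for Slc2a3, Pck1, Pkm2 and Idh3a, signal over background limits what can be measured.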

Other observations

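In the list of hypoxia factors and their targets, 3 of 14 probes were called higher and none lower, against 4.60% and 3.15% of all probes. Hif1a was higher by 0.85 (limma adjusted p = 9.67e-05), Epas1 by 1.53 (adjusted p = 7.01e-05) and Vegfa by 1.69 (adjusted p = 5.63e-06). Hif1a lay at the fold threshold, and without maturation replicate 2 or 3 or secretory replicate 1, 2 or 3 it was not called (differences across all arrays left out 0.80 to 0.93). Ndrg1 differed by -0.31 (adjusted p = 0.0157), Adm by -0.09 (adjusted p = 0.641) and Car9, detected on 3 of 8 arrays, by -0.19 (adjusted p = 0.525). The median of the list was -0.07, where that of all probes was -0.01.

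In the pentose phosphate pathway, which makes NADPH, none of 7 probes was called, where 4.60% of all probes were called higher and 3.15% lower. By adjusted p alone 2 were higher, the enzymes that make NADPH, G6pdx by 0.71 (limma adjusted p = 0.000141) and Pgd by 0.66 (adjusted p = 0.000348), and Rpia was lower (-0.31, adjusted p = 0.0355), where 12.8% of all probes were higher and 14.0% lower.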
